A study of Homo sapiens with 2 samples.

Results

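The intergenic H3K9me3 peaks of chromosome 19 are the peaks of that chromosome that share not even 1 bp with a gene interval of the deposited gene table. They were chosen by position alone and number 2485, of 4965 peaks on the chromosome (50.1%) and 126965 in the whole list. The mark, trimethylation of lysine 9 of histone H3, was measured by ChIP-seq in KBM7, a near-haploid human cell line from a chronic myeloid leukemia, grown in IMDM with fetal calf serum. Formaldehyde-fixed chromatin was precipitated with 1 antibody to H3K9me3 (Abcam ab8898) or with IgG, giving 1 library each. The IgG values were not analysed here, so each value describes 1 library with no replicate, with no control values set beside it, and no p-value was computed. All peak and gene positions are hg19, per the submitters' processing notes.

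H3K9me3 marks heterochromatin and is bound by HP1 proteins. It is laid down over many transposable elements when KRAB zinc finger proteins bind them and bring in the corepressor TRIM28 and the methyltransferase SETDB1. Genes for KRAB zinc finger proteins lie in tandem clusters on human chromosome 19 and carry the mark themselves, mostly over their 3' parts, where the finger exons lie. The data allow the sequence between those genes to be read apart from the genes. A zinc finger interval is here a gene interval whose symbol is ZNF or ZFP followed by a number; there were 247 of them with 245 symbols, among 1775 gene intervals of the chromosome.

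Intergenic peaks reached the sequence directly before the start of 7 zinc finger intervals, counted within 250 bases upstream. Of the 247 zinc finger intervals 66 had any peak there. Other gene intervals were not counted in this way, so whether these counts are high or low for zinc finger genes was not tested. The 7 were ZNF699, ZNF776, ZNF134, ZNF761, ZNF530, ZNF615 and ZNF550. For 3 of them the interval length lay within 30 bp of the RefSeq gene length, and the RefSeq start was taken to stand for the start of the interval. Like length does not show that the starts coincide. The promoters of these 3 are shown because a peak outside every gene reaches into the 250 bases before the interval. They were picked after the values were seen. The peak took 137 of the 250 bases before ZNF776, 74 before ZNF761 and 33 before ZNF615. These are the bases farthest from the start, since the peak lies outside the gene and none is narrower than 300 bp. They are not marked in the printed sequences. The sequences are RefSeq's on GRCh38.p14, from 250 bases before to 50 after the start, 5' to 3', with every CG in capitals; CG reads the same on both strands and copies cannot overlap. They lie at chr19:57746565-57746864 (plus strand), chr19:53431734-53432033 (plus strand) and chr19:52008162-52008461 (minus strand) in the order printed.
ZNF776: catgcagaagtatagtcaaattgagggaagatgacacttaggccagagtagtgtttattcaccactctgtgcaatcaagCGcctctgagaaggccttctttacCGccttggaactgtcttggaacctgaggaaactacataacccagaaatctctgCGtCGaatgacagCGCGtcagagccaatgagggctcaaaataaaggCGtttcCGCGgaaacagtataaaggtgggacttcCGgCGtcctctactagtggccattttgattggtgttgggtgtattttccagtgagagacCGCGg
ZNF761: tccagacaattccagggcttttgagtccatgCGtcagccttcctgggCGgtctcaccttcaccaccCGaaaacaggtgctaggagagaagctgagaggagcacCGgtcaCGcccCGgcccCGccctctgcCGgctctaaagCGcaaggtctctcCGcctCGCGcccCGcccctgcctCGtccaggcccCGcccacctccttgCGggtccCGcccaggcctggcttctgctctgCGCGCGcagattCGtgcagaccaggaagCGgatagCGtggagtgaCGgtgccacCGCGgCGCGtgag
ZNF615: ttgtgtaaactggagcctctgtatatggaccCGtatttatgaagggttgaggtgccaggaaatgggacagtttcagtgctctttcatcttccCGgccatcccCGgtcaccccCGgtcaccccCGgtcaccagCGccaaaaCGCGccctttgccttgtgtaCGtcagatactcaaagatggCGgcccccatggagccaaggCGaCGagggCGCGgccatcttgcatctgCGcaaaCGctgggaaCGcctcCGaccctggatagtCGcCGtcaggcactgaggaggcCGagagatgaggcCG
ZNF776 held 13 copies of CG, ZNF761 28 and ZNF615 22. Of 27305 RefSeq promoters of this length, 51.5%, 25.9% and 37.6% held at least as many, in the same order. Over the 210 zinc finger symbols of chromosome 19 matched to a promoter the median was 20 copies of CG, against 14 over all promoters. The sequences of the peaks themselves were not used here.

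Intergenic peaks were narrower than peaks over genes and took up 16.4% of the sequence between genes. Their median width was 1050 bp (25th to 75th percentile 600 to 1800), the narrowest were 300 bp and the widest 60750 bp. Peaks that overlapped a gene interval numbered 2480 and had a median of 1500 bp (750 to 3000). A wide peak is more likely to touch a gene and so to be left out by the rule. The widest of these lay over zinc finger genes: the 1137 peaks over a zinc finger interval had a median of 1950 bp, and the 1343 over other genes only had 1350 bp. The intergenic peaks summed to 4.03 Mb, 38.3% of all peak sequence of the chromosome, on 24.5 Mb of intergenic sequence. That is 101 peaks per Mb (97.5 to 105, 95% exact Poisson interval, which covers counting error only and is too narrow where peaks are pieces of 1 stretch). A further 0.829 Mb of intergenic sequence lay in peaks that crossed from a gene, so 19.8% of it was in a peak of either kind. Of the intergenic peaks 97 were 5 kb or wider (3.90%), against 3.64% of all peaks of the list and 2.95% of the intergenic peaks of the other autosomes. At 10 kb or wider there were 22 (0.885%), against 0.837% and 0.59%. Many wide peaks elsewhere lay on chromosomes 8 and 15, described below as carried in extra copy. Without chromosomes 8 and 15 the share of 5 kb or more on the other autosomes was 1.75%. Of the 355 intergenic peaks of 10 kb or more on the other autosomes, 206 lay on chromosome 8 and 55 on chromosome 15. The number of peaks depends on where the authors' calling split them: it was 1427 with peaks up to 1 kb apart joined, 1543 among peaks of 900 bp or more and 680 among those of 1800 bp or more.

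**Figure D1:**
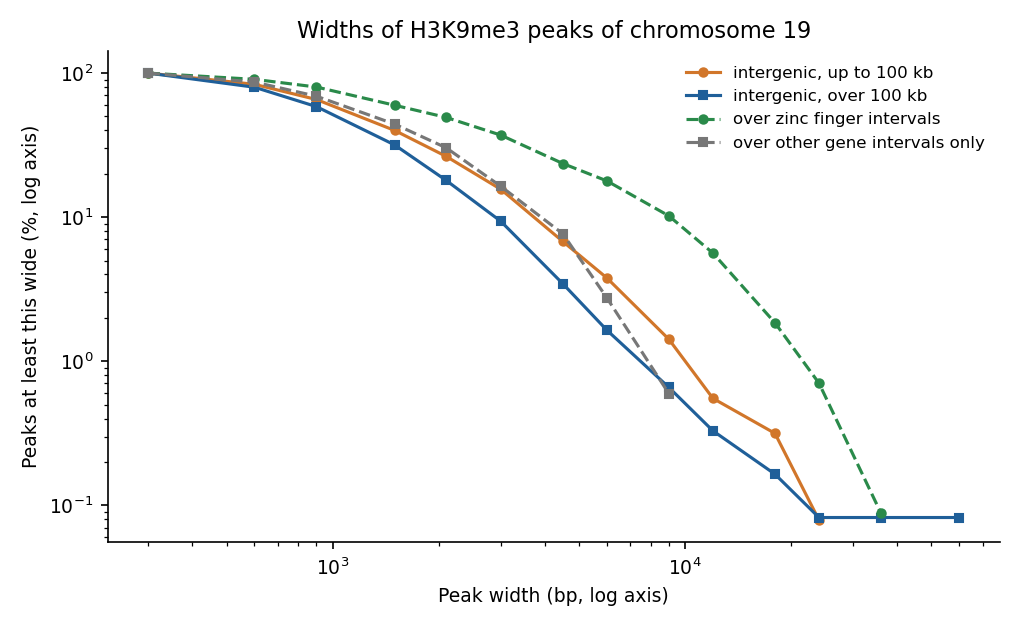
Share of peaks (vertical, percent, log axis) at least as wide as the value on the horizontal axis (bp, log axis) for intergenic peaks up to 100 kb and over 100 kb from a zinc finger interval, and for peaks over zinc finger intervals and over other gene intervals only. The curve of peaks over zinc finger intervals lies highest up to 36000 bp, and near intergenic peaks lie above far ones up to 18000 bp, with 15.6% and 9.37% at 3000 bp or more.

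Beside the genes the rule could turn on few bases. The intergenic peak closest to a gene was at 9415801 to 9416850, 6 bp from ZNF699, and the next 2 were 11 bp from FPR3, a formyl peptide receptor, and 30 bp from the microRNA interval MIR1283-1. Just outside the rule, peaks overlapped ZNF816 by 14 bp, a U6 interval by 16 bp and a Y_RNA interval by 22 bp. Only 22 intergenic peaks lay within 150 bp of a gene interval and 168 (6.76%) within 1 kb. AC020911.1, an interval of 1699 kb with a score of 44.9 reads per kb, kept all peaks beneath it out of the set; with gene intervals over 500 kb left out the set held 2529 peaks.

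Intergenic peaks were denser near zinc finger intervals, and the largest step in density between neighbouring distance classes was at 100 kb. Cover by intergenic peaks fell most at 50 kb, and cover by any peak at 10 kb, from 48.8% to 30.8%. Within 10 kb of a zinc finger interval there were 167 peaks per Mb of intergenic sequence (153 to 183), and 29.9% of it lay in intergenic peaks. From 10 to 50 kb the density was 149 per Mb (136 to 162) and the cover 28.8%. From 50 to 100 kb it was 134 per Mb (118 to 151) with a cover of 19.4%. Beyond 100 kb the density fell to 73.8 per Mb (67.7 to 80.3), with a cover of 10.8%, up to 500 kb. It was 69.0 per Mb (61.6 to 77.1) and 9.43% from 500 to 1000 kb, and 84.9 per Mb (76.3 to 94.1) and 12.9% farther out. The intervals of the 3 nearer classes thus lay above those of the 3 farther ones, while those of neighbouring classes on the same side of 100 kb overlapped. The median intergenic peak lay 94.5 kb from a zinc finger interval and the median intergenic base 248 kb. Within 100 kb lay 51.0% of the peaks and 34.1% of the intergenic sequence.

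**Figure D2:**
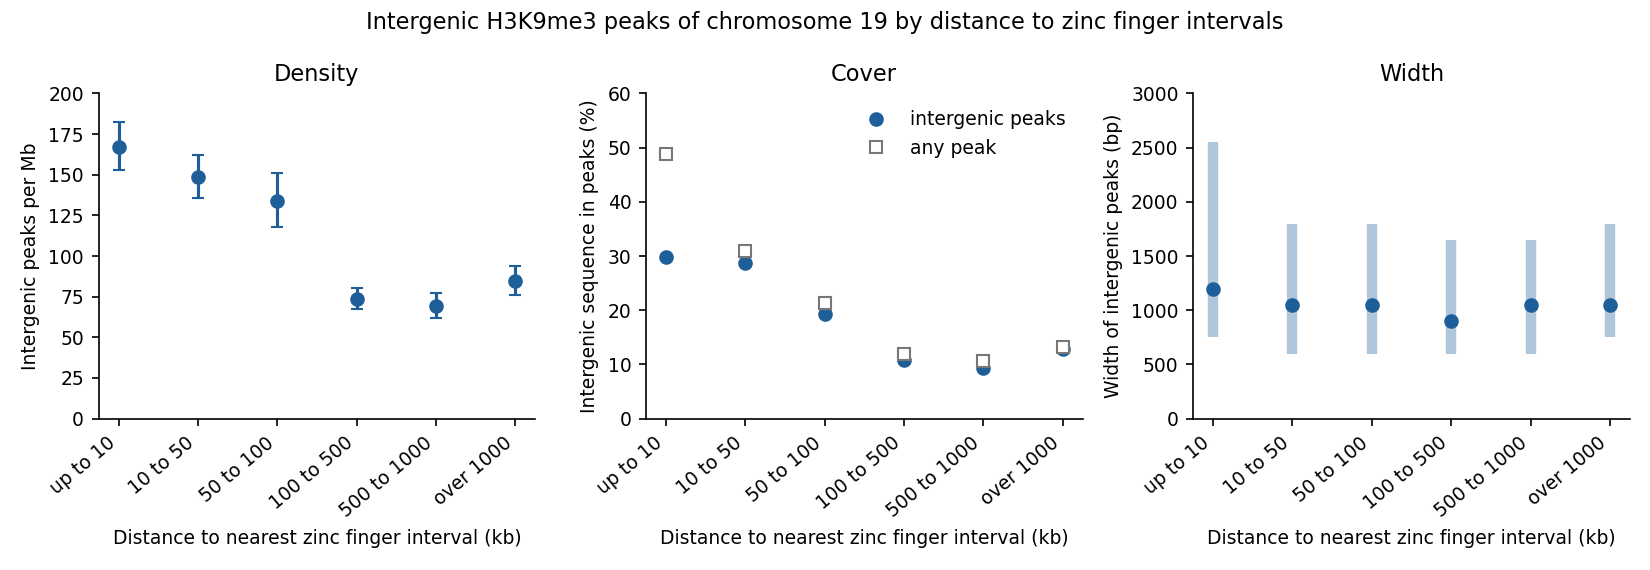
Intergenic peaks of chromosome 19 in 6 classes of distance to the nearest zinc finger interval (horizontal, kb): peaks per Mb of intergenic sequence with exact 95% Poisson intervals, percent of intergenic sequence in intergenic peaks and in any peak, and median width in bp with the 25th to 75th percentile as a bar. Density goes down by class to 100 kb and stays between 69.0 and 84.9 per Mb beyond, while median widths stay between 900 and 1200 bp.

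Width changed less with distance than density did. The 1268 peaks up to 100 kb from a zinc finger interval had a median of 1050 bp (1050 to 1200, binomial interval of the median), and the 1217 farther away had 900 bp (900 to 1050), a difference of 1 step of the 150 bp grid. The arms differed in this: the medians were 1050 bp near and 1050 bp far on the short arm, and 1350 bp near and 900 bp far on the long arm. Outside the zinc finger clusters, described below, both near and far peaks had a median of 900 bp. With near set at up to 200 kb both medians were 1050 bp. The upper part of the distribution differed more. In the class up to 10 kb the 75th percentile was 2550 bp, against 1650 to 1800 bp in all others. Of the near peaks 68 (5.36%) were 5 kb or wider, and of the far peaks 29 (2.38%). The share was highest, 7.94%, within 10 kb. Of the 97 peaks of this width 70.1% were near, as were 15 of the 22 of 10 kb or more. Across peaks the rank correlation of width with distance was -0.10, over 2485 peaks of 1 library that share stretches.

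Set against the far sequence, near sequence held 2.02 times as many intergenic peaks per Mb (1.86 to 2.18), at 152 and 75.3 per Mb, and 2.46 times the cover, at 27.0% and 10.97%. Counting any peak, the covers were 35.1% near and 11.9% far. The contrast was found on both arms but not to the same size. On the short arm the near and far densities were 153 and 44.1 per Mb, a ratio of 3.47 (2.99 to 4.03), and on the long arm 151 and 92.6 per Mb, a ratio of 1.63 (1.47 to 1.80). The near densities of the arms differed by less than their counting error, and the far density of the long arm was the higher one. Sequence beside the centromere was dense: within 1 Mb of the longest empty stretch (24577801 to 27776550, with neither peak nor gene) the part over 100 kb from a zinc finger interval held 128 peaks per Mb with 27.8% cover. Without it the far densities were 40.5 per Mb on the short arm and 89.0 per Mb on the long arm, and the ratio over the chromosome was 2.12 in density and 2.84 in cover.

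Inside the zinc finger clusters the sequence between genes carried more of the mark than in the gaps between clusters. A cluster was a chain of at least 4 zinc finger symbols with neighbouring intervals no more than 200 kb apart. The 13 clusters held 215 symbols, and 30 symbols lay outside, alone or in shorter chains. Clusters had 171 intergenic peaks per Mb (159 to 184) and gaps, with the chromosome ends, 86.3 per Mb (82.3 to 90.4), a ratio of 1.99 (1.82 to 2.17). The covers were 34.2% in clusters and 12.6% in gaps. With peaks that crossed from genes they were 47.5% and 13.9%. Peaks of 5 kb or more made up 6.84% of those in clusters and 2.65% of those in gaps. The density ratio was 1.30 when peaks up to 1 kb apart were joined and 3.11 among peaks of 1800 bp or more.

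**Figure D3:**
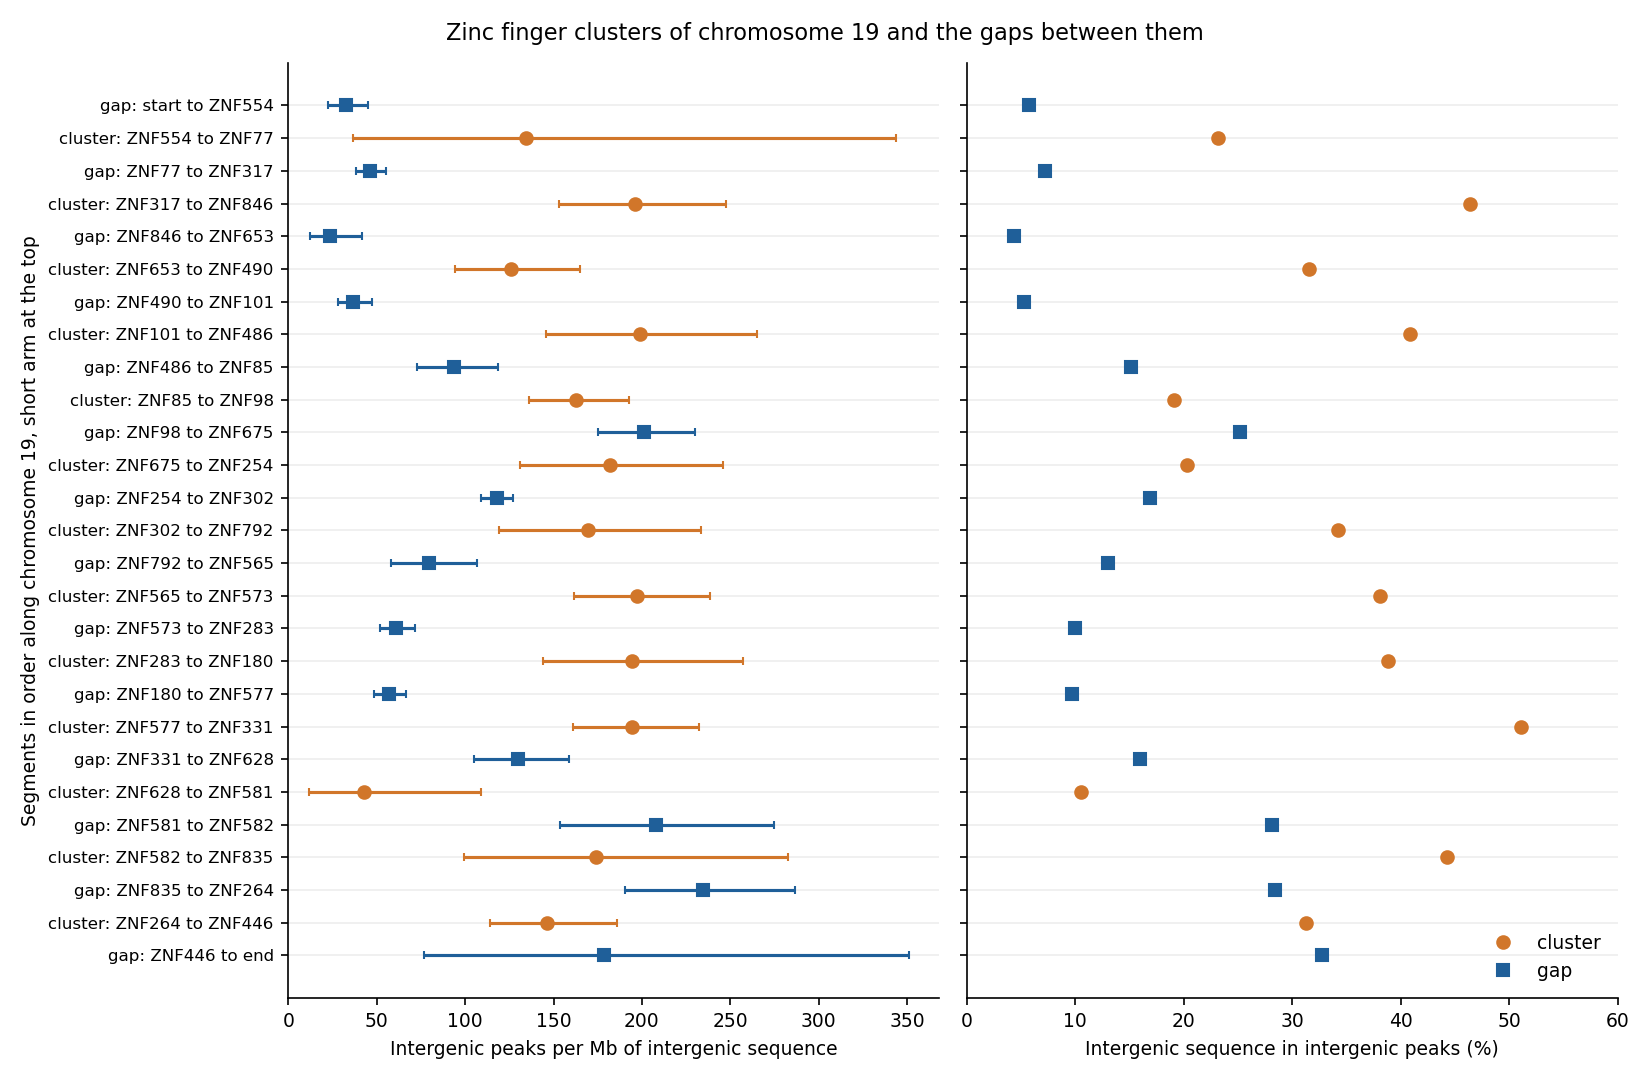
The 13 zinc finger clusters and the 12 gaps between them, with both chromosome ends, in order along chromosome 19 from the short arm (top), each named by the zinc finger symbols that bound it. The left panel gives intergenic peaks per Mb of intergenic sequence with exact 95% Poisson intervals, and the right panel the percent of that sequence in intergenic peaks. Of the clusters 12 lie above 100 peaks per Mb, and the gaps run from 23.8 to 235 per Mb.

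The clusters differed among themselves in density and in width. Density lay above 100 per Mb in 12 of 13 and reached 199 per Mb between ZNF101 and ZNF486 (19779605 to 20308984). One of the 12, from ZNF554 to ZNF77, rested on 4 peaks, at 134 per Mb with a wide interval (36.6 to 344). Cover was highest, 51.1%, in the cluster from ZNF577 to ZNF331 (52359055 to 54083523), which holds 38 symbols, and 46.4% in that from ZNF317 to ZNF846 (9251056 to 9879410). In the first of these any peak took 69.8% of the intergenic sequence. The clusters on the short arm nearest the centromere had densities within the range of the others, in narrower peaks. From ZNF85 to ZNF98 (21106059 to 22605148) there were 162 peaks per Mb with a median of 900 bp and a cover of 19.1%, and from ZNF675 to ZNF254 (23835708 to 24312643) 182 per Mb, again 900 bp, with 20.3%. From ZNF582 to ZNF835 the median was 2250 bp on 16 peaks. The exception was the cluster from ZNF628 to ZNF581 (55987699 to 56156988), with 6 symbols: it had 4 intergenic peaks, 42.5 per Mb (11.6 to 109), a cover of 10.5% and a median gene score of 40.1 reads per kb, while the median score was 85.6 or more in the other 12 clusters.

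In peaks per Mb the gaps ranged from sparse to denser than any cluster. In cover only 1 of the 14 gaps and ends exceeded 30%, against 9 of the 13 clusters. Genes named in the gaps, other than zinc finger genes and those beside the widest peaks, were picked as landmarks after the values were seen. On the short arm the 4 gaps up to ZNF101 were sparse. The stretch from ZNF846 to ZNF653, with the DNA methyltransferase gene DNMT1, spans 1.71 Mb. It had 12 intergenic peaks on 0.505 Mb of intergenic sequence, 23.8 per Mb (12.3 to 41.5). From the start of the chromosome to ZNF554 the density was 32.3 per Mb, from ZNF490 to ZNF101 36.6 per Mb and from ZNF77 to ZNF317 46.2 per Mb. Their covers lay between 4.34% and 7.24%. Towards the centromere, from ZNF98 to ZNF675, the gap matched the densest cluster, with 201 per Mb (175 to 230) with 25.1% cover, and it holds 5 zinc finger symbols in chains shorter than 4. Its 49 peaks over 100 kb from any of them still gave 226 per Mb. The neighbouring gap from ZNF486 to ZNF85 had 93.5 per Mb (72.6 to 119) with 15.2% cover, and its 15 peaks over 100 kb from a zinc finger interval gave 54.9 per Mb with 5.58% cover.

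On the long arm the longest gap, from ZNF254 across the centromere to ZNF302, held 632 intergenic peaks, 118 per Mb (109 to 127) with 16.9% cover. It has only 58 gene intervals in 10.9 Mb, and the density is on 5.37 Mb of intergenic sequence, with the empty stretch left out. Between ZNF573 and ZNF283, where the CEACAM adhesion genes lie, the density was 60.9 per Mb, and between ZNF180 and ZNF577 it was 57.1 per Mb. Farther out on the long arm the gaps were denser. The gap from ZNF331 to ZNF628, with the leukocyte and killer cell receptor genes LILRB1 and KIR3DL1 and the microRNAs of the MIR512 to MIR527 array, had 130.0 per Mb (105 to 159) and 15.9% cover. From ZNF581 to ZNF582, over the NLRP genes, of which NLRP5 acts in the oocyte, it was 208 per Mb (154 to 275) with 28.2% cover. This gap also holds 2 zinc finger symbols, ZNF787 and ZNF444. Only 15 of its 49 peaks, on 0.0598 of 0.236 Mb, lay over 100 kb from a zinc finger interval. They gave 251 per Mb with 36.4% cover. The highest density of any cluster or gap, 235 per Mb (190 to 287), was found from ZNF835 to ZNF264 (57183124 to 57702867). Its interval overlapped that of the densest cluster (199 per Mb, 145 to 265), and its cover was 28.4%. The gap has no zinc finger symbol by the definition used. It holds ZIM2 and ZIM3, zinc finger genes named otherwise, and USP29, a ubiquitin protease gene. Its 56 peaks over 100 kb from the bounding intervals gave 228 per Mb. Across the 14 gaps and ends the rank correlation between intergenic cover and the median gene score was 0.87, and across the 13 clusters 0.27. Both are descriptions within 1 library, and gene score and peaks share its reads.

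Of the 10 widest intergenic peaks 4 lay within 1 Mb of the empty stretch at the centromere, and the other 6 lay at most 36.8 kb from a zinc finger interval. The widest, 60750 bp at 24510451 to 24571200, lay on the short-arm side, 198 kb from ZNF254 and with no gene on its other side before AC006504.2 on the long arm. On the same side lay 15150 bp at 24479551 to 24494700. On the long arm 18600 bp at 28248301 to 28266900 and 13500 bp at 28223101 to 28236600 lay 14502 and 44802 bp from AC006504.2, which scored 26.7 reads per kb.

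The widest intergenic peak inside a cluster spanned 26550 bp at 53526001 to 53552550, between ZNF816 and ZNF160, with scores of 192 and 157 reads per kb. Outside the clusters, in the gap from ZNF486 to ZNF85, a pair of 20700 bp peaks lay at 21048601 to 21069300 and 21078601 to 21099300. They were 36.8 and 6.76 kb from ZNF85, whose score was 56.7 reads per kb, against a median of 138 over the zinc finger intervals of the chromosome. Inside clusters, the peak of 20550 bp at 11780251 to 11800800 lay between ZNF627 and ZNF823, and 15000 bp at 52412251 to 52427250 filled most of the space between ZNF649 and ZNF613. In the gap from ZNF98 to ZNF675, at 23526001 to 23540400, a peak of 14400 bp ended 101 bp from ZNF91, a KRAB zinc finger known to repress SVA elements.

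The widest intergenic peak of each sparse gap spanned 6450 bp between THEG and C2CD4C before ZNF554, 10800 bp between MLLT1 and ACER1, 4950 bp between RDH8 and C19orf66, and 4800 bp between CACNA1A and CCDC130. On the long arm the widest spanned 10650 bp beside GPR42 (35870101 to 35880750), 10650 bp between CLC, which encodes galectin-10 of eosinophils, and LEUTX (40240651 to 40251300), and 9600 bp between C19orf75 and IGLON5. In the gaps with LILR, KIR and NLRP genes they were 4050 bp between LAIR2 and KIR3DX1 and 5400 bp between EPN1 and NLRP9, and from ZNF835 to ZNF264 3600 bp. Those 3 gaps held 0, 1 and 0 peaks of 5 kb or more, in the order named. Past ZNF446 the widest, 3600 bp, lay between ZBTB45 and TRIM28, the corepressor gene named above, whose interval scored 16.2 reads per kb.

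Between neighbouring zinc finger intervals most of the intergenic stretches carried a peak. Of 137 stretches with a zinc finger interval on both sides 105 (76.6%) held an intergenic peak, of 159 with one on 1 side 86 (54.1%), and of 1090 with other genes on both sides 258 (23.7%). Their densities were 171, 148 and 75.1 per Mb and their covers 32.6%, 26.7% and 10.5%. Zinc finger pairs had 2.28 times the density of other pairs (2.06 to 2.51). Stretches differ in length, with medians of 15.6, 9.26 and 5.51 kb, which by itself changes the share with a peak. Among stretches of 10 to 50 kb, 73 of 82 zinc finger pairs (89.0%) and 159 of 329 other pairs (48.3%) held a peak, with covers of 37.7% and 10.3%.

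Some of these stretches lay in peaks from end to end. Any peak took the whole 15201 bp between ZNF181 and ZNF599 and the whole 13559 bp between ZNF440 and ZNF439, and 17 of 114 zinc finger pairs of 5 kb or more were over 90% covered. In those full stretches most sequence belonged to peaks that overlap the genes, and the intergenic peaks in them were 1 of 300 bp and none. At the low end 16450 bp between ZNF784 and ZNF580 had no peak, in the cluster with the lowest gene scores, and 41520 bp between ZNF208 and ZNF257 were 5.67% covered. These stretches were picked by their cover after the values were seen.

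Cover by peaks that cross out of genes differed with orientation, and cover by intergenic peaks differed less. For zinc finger pairs the intergenic cover was 34.5% in 22 convergent stretches, 33.6% in 96 tandem and 29.5% in 19 divergent ones, where both genes start. With any peak the covers were 46.2%, 50.5% and 29.6%. Median lengths were 19.1, 12.4 and 19.9 kb, and covers were not matched for length. Most of the 0.996 Mb of divergent sequence lay between ZNF99 and ZNF730 (346992 bp) and between ZNF626 and ZNF85 (261652 bp). Intergenic peaks took 91050 and 64800 bp of these long stretches, and the divergent covers were not recomputed without them. For other gene pairs any peak covered 11.2%, 13.0% and 10.5%. The same was seen by the side of the gene. In the first 1 kb beyond a zinc finger interval any peak covered 68.3% downstream, past the 3' end, and 29.8% upstream of the start, and from 2 to 5 kb 58.4% and 43.8%. From 10 to 20 kb the order was turned, at 33.7% and 36.6%. Intergenic peaks alone covered 7.64% downstream and 10.5% upstream in the first 1 kb, a value that the rule lowers because peaks touching the gene are left out: those took 60.7% and 19.2%. From 5 to 10 kb intergenic peaks covered 36.0% and 37.5%, their highest on either side. Orientation and side were looked at after other results were seen.

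**Figure D4:**
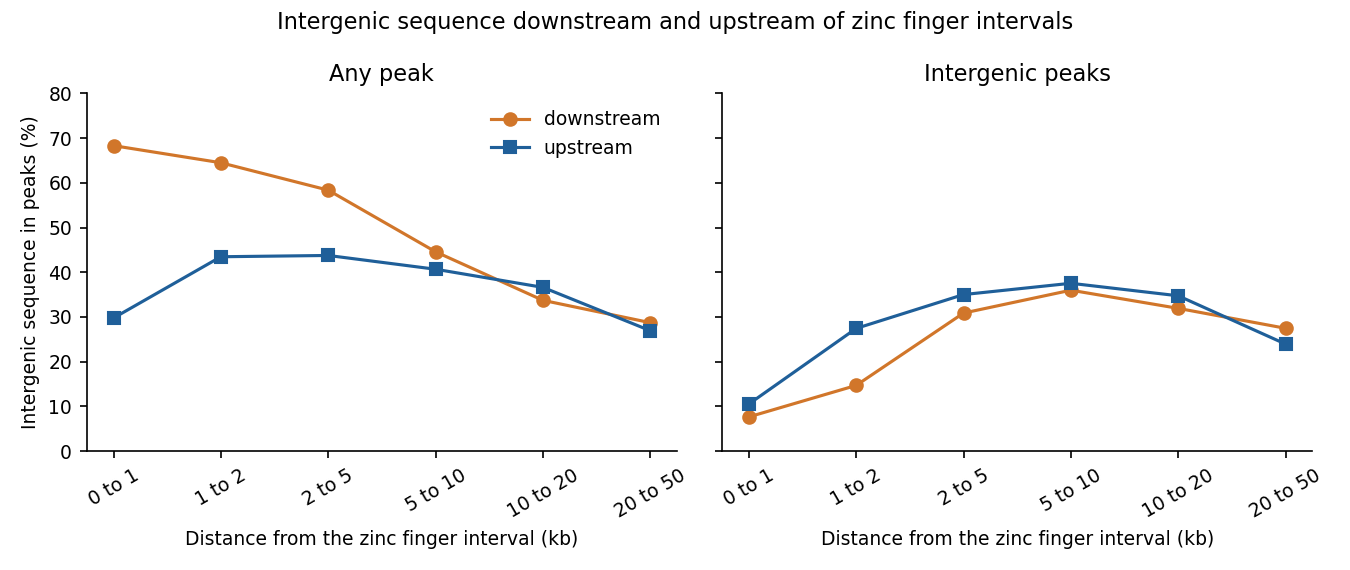
Percent of intergenic sequence in any peak (left) and in intergenic peaks (right), by distance from the nearest zinc finger interval (kb), downstream of its end and upstream of its start. Any-peak cover is 68.3% downstream and 29.8% upstream in the first 1 kb and 44.6% and 40.7% from 5 to 10 kb, while intergenic peaks cover 23.9% to 37.5% on both sides from 2 kb on.

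The scores of the flanking genes went with the intergenic peaks where neither flanking gene was a zinc finger interval as defined here. Zinc finger genes named otherwise count as other genes. Gene score, the reads per kb over a gene interval, was not used to choose the peaks, but it counts reads of the library they were called from. Among 568 stretches of 5 kb or more between other genes, the mean score of the flanking pair had a median of 74.4 reads per kb (25th to 75th percentile 42.8 to 107) for the 243 with an intergenic peak, and 26.5 (17.5 to 42.5) for the 325 without. The rank correlation of intergenic cover with flanking score was 0.62 across these 568 stretches. For zinc finger pairs the medians were 139 in 98 stretches with an intergenic peak and 152 in 16 without, and the correlation was 0.14 across 114. With a zinc finger interval on 1 side they were 134 and 101, with a correlation of 0.42 across 106. Stretches counted as without can still hold peaks that overlap a gene, which the rule leaves out. Only 1 of the 114 zinc finger pairs had no peak of any kind. The other pairs counted as without thus held gene-overlapping peaks. Stretches that neighbour each other share a gene, so they are not independent, and all values come from 1 library. Stretches with and without an intergenic peak were not matched for length.

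Most intergenic peaks had another peak close by. The median distance to the next peak was 600 bp, 450 bp for those up to 100 kb from a zinc finger interval and 900 bp for the rest. A peak within 1 kb was present for 67.7% of the near and 51.3% of the far ones. Chained at up to 1 kb, the intergenic peaks fell into 1589 chains, of which 1002 were single peaks and 161 also held a peak over a gene. These mixed chains held 326 intergenic peaks (13.1%), and 199 intergenic peaks stood in 94 chains that reached a zinc finger interval. The longest chain spanned 92.7 kb at 58696501 to 58789200, with 1 intergenic peak among its 6 peaks, over ZNF274, itself a zinc finger protein that recruits SETDB1, and ZNF544. Chains were picked by length after the values were seen. The longest chain of intergenic peaks alone spanned 63.45 kb at 24507751 to 24571200, beside the centromere, with 2 peaks. Next among such chains was 1 of 10 intergenic peaks over 52.95 kb at 11751901 to 11804850, between ZNF627 and ZNF823. The count of 326 was 79 when only peaks at least 5 kb from genes were taken, 120 with peaks up to 300 bp apart joined, 193 among peaks of 900 bp or more and 84 among those of 1800 bp or more.

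Set against the other autosomes, chromosome 19 had the highest density of intergenic peaks. Its 101 per Mb compared with 48.7 per Mb over the other 21 autosomes together (48.3 to 49.1), a ratio of 2.08 (1.998 to 2.17), and with 34.1 to 69.7 per Mb by chromosome, the top value on chromosome 20. Its cover of 16.4% compared with 6.81% over the others and was just under the 16.6% of chromosome 8, where peaks are wide. KBM7 is known to carry chromosome 8 and part of chromosome 15 in an extra copy, and values were not corrected for copy number. Without these 2 chromosomes the ratios were 2.05 in density and 2.66 in cover.

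Zinc finger intervals elsewhere also had denser intergenic peaks around them. Up to 100 kb from one, chromosome 19 had 152 per Mb and the other autosomes together 76.8 per Mb (73.1 to 80.6), with covers of 27.0% and 12.5%. Over 100 kb away the densities were 75.3 on chromosome 19 and 48.2 per Mb elsewhere (47.9 to 48.6), with covers of 10.97% and 6.71%. Near exceeded far density on 16 of the 19 other autosomes that had both and near exceeded far cover on 17. The far sequence of the short arm of chromosome 19, 44.1 per Mb, lay below the pooled far value of the other autosomes, and that of the long arm, 92.6 per Mb, above the highest of any, 69.5 per Mb.

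**Figure D5:**
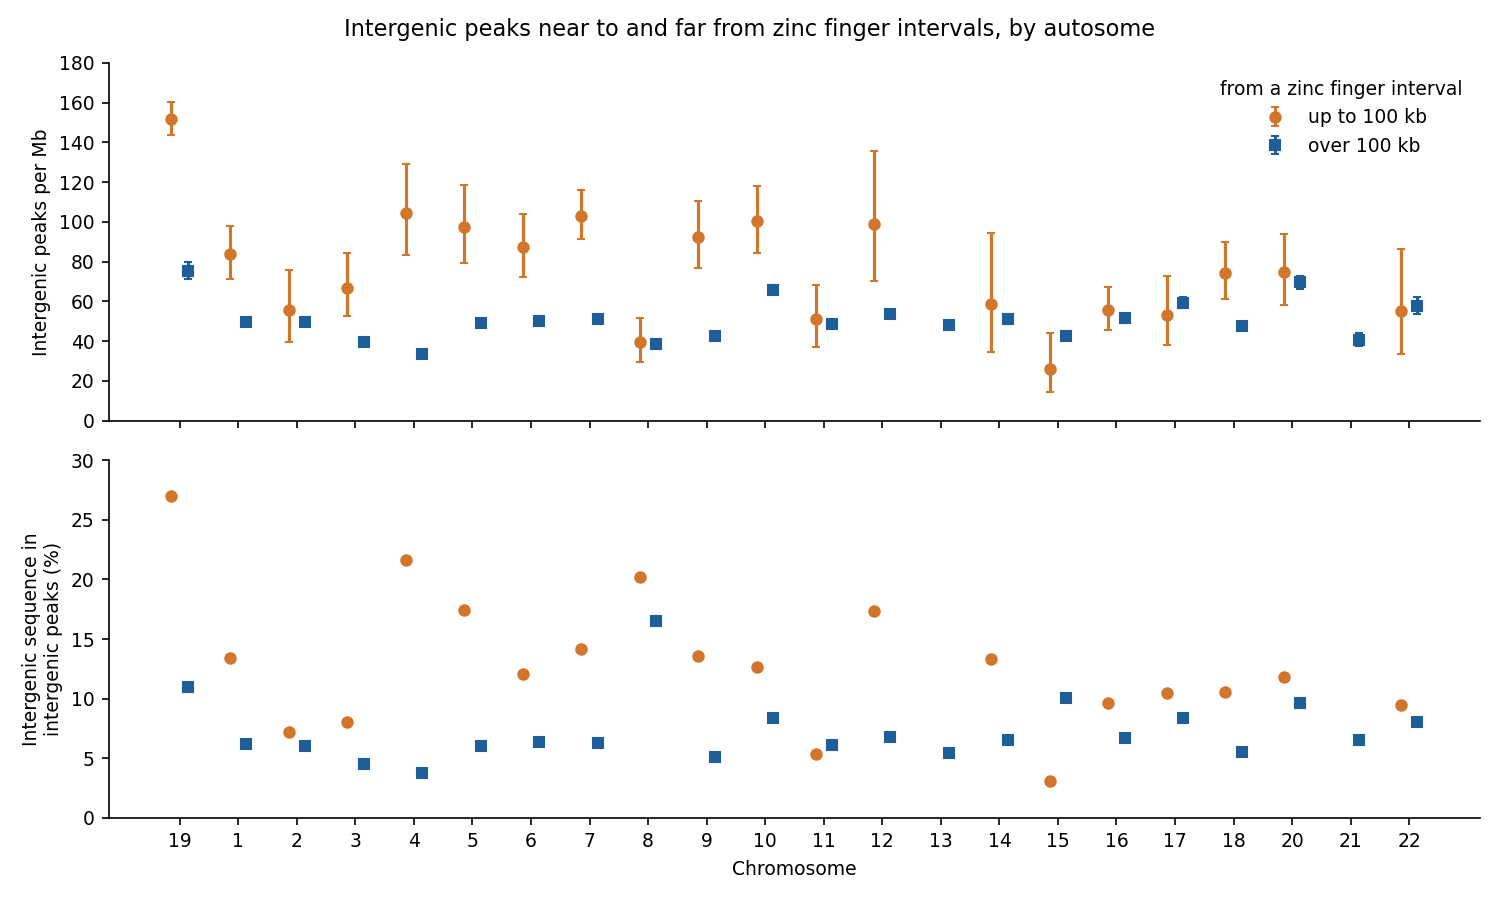
Intergenic peaks per Mb with exact 95% Poisson intervals (top) and percent of intergenic sequence in intergenic peaks (bottom), up to 100 kb and over 100 kb from a zinc finger interval, for chromosome 19 (left) and each other autosome. Chromosome 19 stands at 152 and 75.3 per Mb, and no other autosome exceeds 104.6 per Mb near or 69.5 per Mb far from zinc finger intervals; chromosomes 13 and 21 have no near value.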

How the data were processed

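H3K9me3 chromatin immunoprecipitation was sequenced in KBM7 cells, 1 library; the IgG library was not analysed here. The build hg19 and the tools Bowtie2 and MACS come from the submitters' processing notes, which state neither role nor version. How reads were filtered and whether IgG entered peak calling is not given in the sources. The deposited gene table gives a raw read count per gene interval and a score, a signal in reads per kb of interval, not scaled to depth or copy number. The deposited peak list gives positions only, with no height or significance, on a 150 bp grid. Intervals of chromosome 19 sum to 2050434 reads, and total depth is unknown. Mappability was not used, so a stretch without peaks can be one where reads could not be placed.

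Density is intergenic peaks per Mb of sequence in no gene interval. Cover is the percent of that sequence in peaks. Empty stretches over 1 Mb were left out. Distances run from edge to edge. Poisson intervals are exact, ratios carry the exact conditional binomial interval and medians the binomial order-statistic interval, all at 95%, and cover counting error only. With 1 library no test between groups was made. Named are the 10 widest peaks, the widest peak of the clusters and gaps described, the peaks at the edge of the rule and the genes beside them. The peak set, its definitions and the gene lists were chosen with earlier results of these data known. The interval code was tested on simulated data. Intervals were computed with scipy 1.17.1, tables with pandas 2.3.3 under Python 3.11.15, arrays with numpy 2.4.6 and plots with matplotlib 3.10.9.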

Additional observations from a re-analysis of the deposited data

How the results depend on the processing

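Of 160 values under the alternatives 82 stayed within the interval of the main value or, for counts, within a set factor of it, and 78 moved beyond. Some of the 82 could not move by construction, so their number does not measure how stable the results are. For example, keeping empty stretches changes neither the peaks nor their widths, and measuring distance from peak midpoints does not enter the near over far cover. Every ratio stayed above 1. Counts and single medians have no direction that could change. The difference in median width between near and far peaks did not hold under every alternative: with near set at up to 200 kb both medians were 1050 bp. Below, density ratios are given for near over far, clusters over gaps, zinc finger pairs over other pairs and chromosome 19 over the other autosomes, in that order, and cover ratios for the same without the pairs. With peaks up to 300 bp apart joined the density ratios were 1.70, 1.60, 1.88 and 1.82, the cover ratios 2.17, 2.33 and 2.25, and the median widths 1200, 1350, 1200 and 1800 bp for all, near, far and gene-overlapping peaks. With peaks up to 1 kb apart joined the density ratios were 1.47, 1.30, 1.59 and 1.63, the cover ratios 1.94, 1.998 and 2.10, and the median widths 1500, 1650, 1350 and 2400 bp for all, near, far and gene-overlapping peaks. Among peaks of 900 bp or more the density ratios were 2.24, 2.41, 2.54 and 2.34, the cover ratios 2.58, 2.93 and 2.54, and the median widths 1650, 1650, 1500 and 2100 bp for all, near, far and gene-overlapping peaks. Among peaks of 1800 bp or more the density ratios were 2.65, 3.11, 3.08 and 2.52, the cover ratios 2.89, 3.45 and 2.63, and the median widths 2700, 3000, 2700 and 3300 bp for all, near, far and gene-overlapping peaks. Joining widens peaks and lowers their number, and a width minimum keeps wide ones, by construction; why the ratios moved was not tested. The intergenic peaks numbered 1427 when joined up to 1 kb, 1543 at 900 bp or more and 680 at 1800 bp or more, and the intergenic peaks chained to gene-overlapping peaks 120 when joined up to 300 bp, 193 and 84 at the width minimums and 79 at least 5 kb from genes. At least 5 kb from every gene the density ratios were 1.72, 1.69, 1.87 and 2.27 and the cover ratios 1.95, 2.19 and 2.52, and at least 1 kb from every gene the cover ratios were 2.29, 2.51 and 2.46. The ratio of flanking scores with and without an intergenic peak between other genes was 2.81 as reported. It was 2.58 at least 1 kb and 2.60 at least 5 kb from genes, and 2.43 for peaks of 1800 bp or more. Keeping empty stretches gave density ratios of 2.41 for near over far and 2.30 for clusters over gaps, and cover ratios of 2.95, 3.14 and 2.44. Without the sequence beside the centromere, an alternative chosen after seeing the data, the cover ratios were 2.84, 3.06 and 2.30. The near over far cover ratio was 2.15 with near set at up to 200 kb. The clusters over gaps cover ratio was 2.54 and 2.45 with clusters chained at 100 and 500 kb. The chromosome 19 cover ratio was 2.54 without gene intervals over 500 kb, 2.32 without the 5 widest peaks and 2.66 without chromosomes 8 and 15. Chains were not recomputed with peaks joined up to 1 kb, since chains then equal peaks, nor the width of gene-overlapping peaks where it cannot change. No paired analysis was possible because 1 library holds no replicates.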

Other observations

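The longest intergenic stretches with no peak of any kind, other than the empty stretch at the centromere, lay beside genes outside the zinc finger families. They were 165987 bp between the insulin receptor gene INSR and ARHGEF18 (7294012 to 7459998), 99334 bp between the cyclin E gene CCNE1 and C19orf2 (30315217 to 30414550), and 96536 bp on the other side of CCNE1, up to C19orf12 (30206365 to 30302900). Next came 88515 bp between OR4F17 and AC010507.1 near the start of the chromosome and 81019 bp between SEMA6B and TNFAIP8L1. The mean scores of the flanking pairs were 34.3, 27.4, 16.4, 9.21 and 19.9 reads per kb in that order. The median was 26.5 for stretches of 5 kb or more between other genes without an intergenic peak. CCNE1 thus lay between 2 of the 5 longest peak-free stretches, within the gap from ZNF254 to ZNF302 that held 118 intergenic peaks per Mb as a whole.

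The intergenic peak with the greatest distance to any other peak was 300 bp wide, at 47511601 to 47511900 between ARHGAP35 and NPAS1, with 312 kb to the next. Its flanking genes scored 23.3 and 16.2 reads per kb. Whether these stretches hold sequence to which reads could not be placed was not tested.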
